A study of Ciona robusta with 16 samples.

Results

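The mRNA of tailbud embryos and larvae of the tunicate *Ciona robusta* was compared with the mRNA of eggs and early cleavage embryos. The first group held the 6 libraries of the middle tailbud II stage at 10.9 h post fertilization (midTII), of the late tailbud II stage at 13.5 h (latTII) and of the larva after hatching at 17.5 h. The second group is called maternal here, although the paper places the activation of zygotic genes at the 16-cell stage. This group held the 6 libraries of the unfertilized egg (unfE, 0 h), the fertilized egg (fertE, 0.4 h) and the 16-cell embryo (cell16, 2.65 h). These are 12 of the 16 libraries of a time course with 2 replicates at each of 8 stages. The other 4 libraries, of the initial gastrula (iniG, 4.5 h) and the late neurula (latN, 7.4 h), entered neither group and are used further on as libraries that played no part in choosing the genes. All samples were whole, dechorionated, untreated wild-type eggs, embryos or larvae from hermaphrodite adults, about 150 per sample, and the RNA was selected by its poly(A) tail and sequenced strand-specifically in reads of 61 bp. The 2 replicates of a stage stem from separate time courses, and the sources used here do not state which replicate number belongs to which, so stages of one group may share a culture.

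Of the 18388 genes of the KY21 annotation, 14326 had enough counts to be tested, and a gene was taken as a member of a set when all 6 libraries of a group lay above all 6 of the other. By this rule 4819 genes were higher in tailbud and larva, 4116 were lower (62.4% of those tested in either direction), and 5391 overlapped. Levels for this rule were CPM, counts scaled to a common library size with TMM factors, edgeR's correction for differences in RNA composition between libraries. On the deposited counts with no scaling the sets held 3758 and 5479 genes, among them 3758 of the 4819 and all 4116. At the edge of the sets lay IRF4, just inside, with a lowest CPM of 33.8 in tailbud and larva and a highest CPM of 33.8 in the maternal libraries, and VOPP1, just outside, with 21.7 and 21.8 CPM. On the other side EIF3J was just inside, with a highest CPM of 39.2 in tailbud and larva and a lowest of 39.2 in the maternal libraries, and ANKZF1 just outside, with 58.8 and 58.7 CPM. A gene symbol names the human or frog protein most similar to the *Ciona* gene, and symbols were at hand for 3813 of the tested genes, 733 of the higher and 1755 of the lower set among them. A symbol therefore marks a similar protein and not necessarily the same function. The genes with a symbol were lower more often than the rest, and the lists described below hold only such genes. Among the 3813 tested genes with a symbol, edgeR's quasi-likelihood test (adjusted p under 0.05) called 1033 higher (27.1%) and 2209 lower (57.9%) in tailbud and larva, with a median log2 fold change of -0.60, and 19.2% lay without overlap on the higher side and 46.0% on the lower side.

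An egg carries a store of mRNA and protein laid down by the mother, and the zygotic genome is largely silent for the first divisions. Maternal mRNAs are then degraded while zygotic transcription takes over, a handover known as the maternal-to-zygotic transition. In *Ciona* the tailbud embryo forms a tail with muscle flanking a notochord, a nervous system with sensory pigment cells, and an epidermis that secretes the tunic, and the larva swims, settles and metamorphoses. Because whole embryos were measured, fewer cells of a type and less RNA per cell cannot be told apart. Levels are relative to the mRNA of each library, and no measure of total mRNA per embryo was used.

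The largest differences were gains. SLC26A5, PRSS12, LGR5, muscle light chain MYL1 and a matched tectorin, TECTA, were close to absent from the maternal libraries and present in every later one, while losses included the calcium-sensing receptor CASR, the complement protein C8B, the oocyte linker histone H1-8 and the piRNA protein PIWIL2. Across the 14326 genes, edgeR's quasi-likelihood test called 11970 (83.6%), of which 6544 were higher (45.7%) and 5426 lower (37.9% of those tested) in tailbud and larva at an adjusted p under 0.05, and 2356 were not called. Of the 4819 genes without overlap on the higher side (33.6% of those tested) 4814 were also called, as were all 4116 on the lower side (28.7%). The rule and the test use the same values, so their agreement supports neither. Maternal libraries of the same replicate number deviated together, with correlations of 0.57 to 0.62 between stages, while the test took them as independent. The SE and adjusted p values given below may therefore be too small. With the libraries of each replicate number summed over the 3 stages of a group, leaving 2 sums against 2, the test called 6100 genes higher and 5408 lower.

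Within these sets, which were chosen on the same values, gains were larger than losses. The median log2 fold change was 5.60 over the higher set and -1.56 over the lower set, beside 0.31 over all tested genes. A log2 change of at least 5 was reached by 2689 higher and 58 lower genes, and a change of at least 8 by 1001 and 4. Fold changes of genes with few counts in a group depend on edgeR's small prior count, so the largest are imprecise. A typical gene of the higher set had a median TPM (transcript abundance, corrected for length and expressed relative to the library) of 16.8 in tailbud and larva and 0.416 in the maternal libraries. In the lower set the typical levels were 13.9 TPM in tailbud and larva and 71.9 TPM in the maternal libraries. Using a TPM of at least 2 as detected, 3779 of the 4116 lower genes were still detected in tailbud and larva, against 4097 in the maternal libraries. In the higher set 4052 of 4819 were detected in tailbud and larva and 1606 in the maternal libraries. The scaling sets where zero lies. Of the called genes 54.7% were higher with TMM factors, 60.5% with RLE factors and 43.3% with library totals, while the median of all tested genes was 0.31, 0.58 and -0.41. None of the 109 genes named by the rule given in the methods changed its direction or its call under these scalings. Genes at the edge of the sets did, as IRF4 was not called with library totals and EIF3J was not called with RLE factors.

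**Figure D1:**
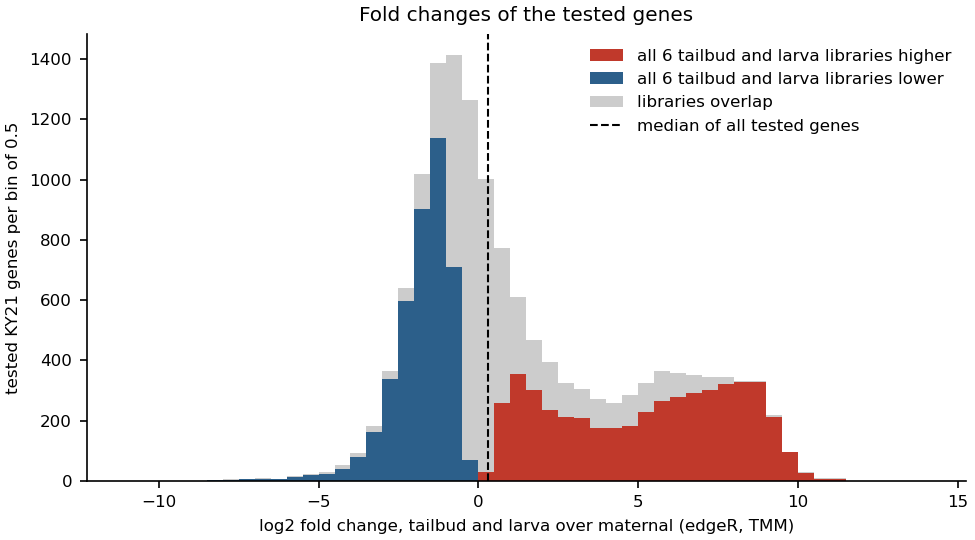
Histogram of the log2 fold change of the 14326 tested genes, tailbud and larva over maternal, in bins of 0.5, stacked by whether all 6 tailbud and larva libraries were higher (4819 genes), all 6 were lower (4116) or the libraries overlapped (5391). The dashed line marks the median of all tested genes, 0.31. The higher set reaches beyond a log2 change of 8 in 1001 genes, the lower set in 4. Fold changes of genes near absence in a group depend on the prior count.

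Genes of muscle were mostly higher. Of the 25 tested members of the muscle and sarcomere list 21 were higher and 4 lower, with a median log2 fold change of 5.93. This was 84.0% higher, beside 27.1% of all genes with a symbol. The summed level of the list was 9033 to 12330 TPM in tailbud and larva, against 898 to 1005 TPM in the maternal libraries. TNNI1 (KY21.Chr11.473), matched to the inhibitory troponin subunit of slow muscle, had a TPM of 1285, 1983 and 2255 (lowest, median and highest of 6 libraries, as for the values below) in tailbud and larva, against 4.48, 4.80 and 5.41 in the maternal libraries. Its log2 fold change was 9.29 ± 0.144 (SE; edgeR's adjusted p = 3e-12). MYL1 (KY21.Chr1.1642), a myosin essential light chain, stood at 461, 696 and 955 TPM in tailbud and larva, against 1.08, 1.64 and 1.99 TPM in the maternal libraries. In both genes every later library lay far above every maternal one, and the mean of MYL1 was lowest at midTII and highest in the larva. The calcium pump of the sarcoplasmic reticulum ATP2A1 (KY21.Chr11.971) reached 655, 1083 and 1224 TPM in tailbud and larva, against 2.46, 2.54 and 2.73 TPM. The cardiac actin match ACTC1 (KY21.Chr1.2019) had 397, 746 and 1138 TPM, against 1.36, 1.86 and 2.61 TPM in maternal libraries. STAC3, an adaptor needed for coupling excitation to contraction, had a median of 47.9 TPM in tailbud and larva and 0.0949 TPM in the maternal libraries, where no library held more than 4.1 counts. The groups did not overlap in any of these genes. The 4 members that fell included MYO18B, an unconventional myosin, with medians of 21.3 TPM in tailbud and larva and 259 TPM in the maternal libraries.

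The extracellular matrix and adhesion list was higher in 31 of 45 members, lower in 6 and not called in 8. Its median log2 fold change was 2.95. This was 68.9% higher, beside 27.1% of all genes with a symbol. A pair of genes matched to COL4A6, a chain of the basement membrane collagen IV, carry neighbouring identifiers. KY21.Chr1.1213 had 881, 986 and 1090 TPM in tailbud and larva, against 3.02, 3.15 and 3.42 TPM in the maternal libraries. KY21.Chr1.1215 had 996, 1485 and 2038 TPM, against 4.29, 4.79 and 5.35 TPM in maternal libraries. Both rose by similar amounts, with log2 fold changes of 8.94 ± 0.103 and 8.92 ± 0.127 (SE). The elastic fibre protein match EFEMP2 had 116, 332 and 508 TPM in tailbud and larva, against 0.722, 0.850 and 0.933 TPM in the maternal libraries. LTBP4, which binds latent TGF-beta, had 18.8, 69.4 and 137 TPM, against 0.104, 0.151 and 0.211 TPM in maternal libraries. TECTA (KY21.Chr1.2025), matched to a matrix protein of the mammalian inner ear, had 104, 256 and 412 TPM, against 0.322, 0.540 and 0.786 TPM. No library of one group reached the other in these genes. Of the 6 members that fell, VWF, the clotting factor carrier, had medians of 11.3 TPM in tailbud and larva and 54.7 TPM in the maternal libraries.

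Matrix-like and trefoil proteins were among the most abundant mRNAs of the later stages. MATN2 (KY21.Chr1.2187), matched to a filament-forming matrix protein, had 2765, 9961 and 12820 TPM in tailbud and larva, against 24.9, 25.9 and 28.9 TPM in the maternal libraries. Its stage means climbed over the 3 later stages, at 3267 ± 710, 9961 ± 1162 and 12550 ± 376 TPM (SD, n = 2 each) at midTII, latTII and larva. TFF1 (KY21.Chr1.2012), matched to the trefoil factors that protect mucous surfaces, had 4359, 5274 and 9860 TPM, against 19.7, 21.1 and 24.2 TPM in maternal libraries. TFF3 (KY21.Chr11.358) had 71.3, 1188 and 1475 TPM, against 1.47, 2.36 and 3.27 TPM. Unlike TFF1, it was low at midTII, at 87.8 ± 23.4 TPM, and high at latTII, at 1357 ± 78.3 TPM. The mucus, trefoil and digestive list as a whole had 11 of 13 members higher and 2 lower, with a median log2 fold change of 5.24. This was 84.6% higher, beside 27.1% of all genes with a symbol. The membrane protease match MEP1B had 29.1, 65.4 and 128 TPM in tailbud and larva, against 0.0829, 0.156 and 0.225 TPM in the maternal libraries, and ITLN2, matched to an intelectin that binds microbial sugars, had 6.14, 14.4 and 23.0 TPM, against 0, 0.0877 and 0.167 TPM. The 2 members that fell were DPP4, a peptidase of the cell surface, and MUC17, a membrane mucin.

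Of the 5 most abundant genes of the higher set 3 had no symbol. KY21.Chr14.722 had 12040, 19350 and 27390 TPM in tailbud and larva, against 86.7, 110 and 140 TPM in the maternal libraries. KY21.Chr8.316 had 4682, 8768 and 10940 TPM, against 22.3, 23.3 and 24.7 TPM, and KY21.Chr9.560 had 4211, 6380 and 8025 TPM, against 10.9, 13.3 and 17.7 TPM in maternal libraries. Another, LOC108704161 (KY21.Chr14.174), had 2700, 6441 and 9873 TPM in tailbud and larva and was already abundant in the maternal libraries, at 1093, 1243 and 1446 TPM. A median of at least 1000 TPM was reached by 72 genes of the higher set in tailbud and larva and by 8 genes of the lower set in the maternal libraries.

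Developmental transcription factors were higher in 19 of 28 members, lower in 7 and not called in 2, with a median log2 fold change of 1.91. This was 67.9% higher, beside 27.1% of all genes with a symbol. THRB (KY21.Chr11.1104), a nuclear receptor for thyroid hormone in vertebrates, had 112, 129 and 150 TPM in tailbud and larva, against 0.183, 0.346 and 0.520 TPM in the maternal libraries (log2 fold change 9.28 ± 0.144, SE; edgeR's adjusted p = 2.9e-12). MEIS2, a homeodomain partner of Hox proteins, had 51.8, 106 and 148 TPM, against 0.135, 0.430 and 0.575 TPM in maternal libraries. Both genes separated the groups completely but differed within the later group, where THRB was nearly level and MEIS2 was highest at midTII. HOXD10 (KY21.Chr1.2189), matched to a posterior Hox gene, had 5.14, 53.6 and 190 TPM, against 0, 0.147 and 0.349 TPM. Its means were 5.63 ± 0.705, 53.6 ± 18.1 and 165 ± 34.1 TPM (SD, n = 2 each) at midTII, latTII and larva. PAX7, matched to a paired-box factor of the neural plate border and of muscle precursors in vertebrates, took the opposite course, at 51.4 ± 19.3, 26.8 ± 12.9 and 8.29 ± 0.627 TPM at these stages. MSX2, a homeodomain factor of the same border region, had 7.97, 13.4 and 20.0 TPM in tailbud and larva, against 0, 0.0526 and 0.282 TPM in the maternal libraries. The members that fell included TP63, the p53 relative of epidermis, and RREB1, a zinc finger factor, with medians of 11.0 and 30.4 TPM in tailbud and larva, against 97.7 and 292 TPM in maternal libraries.

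Ligands and receptors moved both ways, with 24 of 39 members higher, 12 lower and 3 not called and a median log2 fold change of 1.13. This was 61.5% higher, beside 27.1% of all genes with a symbol. Among the gains was LGR5 (KY21.Chr11.628), a receptor for R-spondins that amplifies Wnt signalling, with 116, 137 and 202 TPM in tailbud and larva, against 0.219, 0.322 and 0.488 TPM in the maternal libraries. NTN1, the axon guidance ligand netrin, had 45.0, 146 and 170 TPM, against 1.14, 1.70 and 2.74 TPM in maternal libraries. NPR3, a clearance receptor for natriuretic peptides, had 74.7, 110 and 169 TPM, against 0.283, 0.516 and 1.09 TPM. These 3 were high in every later library. LTK, a receptor tyrosine kinase, was highest at midTII within the later group, at 95.3 ± 26.8 TPM, and stood at 9.59 ± 1.99 TPM at latTII and 11.9 ± 1.80 TPM in the larva (SD, n = 2 each), while its mean at latN, outside the comparison, was 154 ± 7.96 TPM. Other members fell. CASR (KY21.Chr11.399), matched to the calcium-sensing receptor, had 1.75, 3.80 and 5.07 TPM in tailbud and larva, against 585, 1647 and 1792 TPM in the maternal libraries, a log2 fold change of -7.85 ± 0.134 (SE; edgeR's adjusted p = 5e-12). The lowest maternal values were those of the 16-cell embryos, at 643 ± 82.1 TPM, below the eggs at 1707 ± 70.5 TPM before and 1714 ± 110 TPM after fertilization. TGFB1, INSR and SEMA3E, matched to a growth factor, the insulin receptor and a guidance cue, were also lower, with log2 fold changes of -2.93, -2.53 and -2.96.

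**Figure D2:**
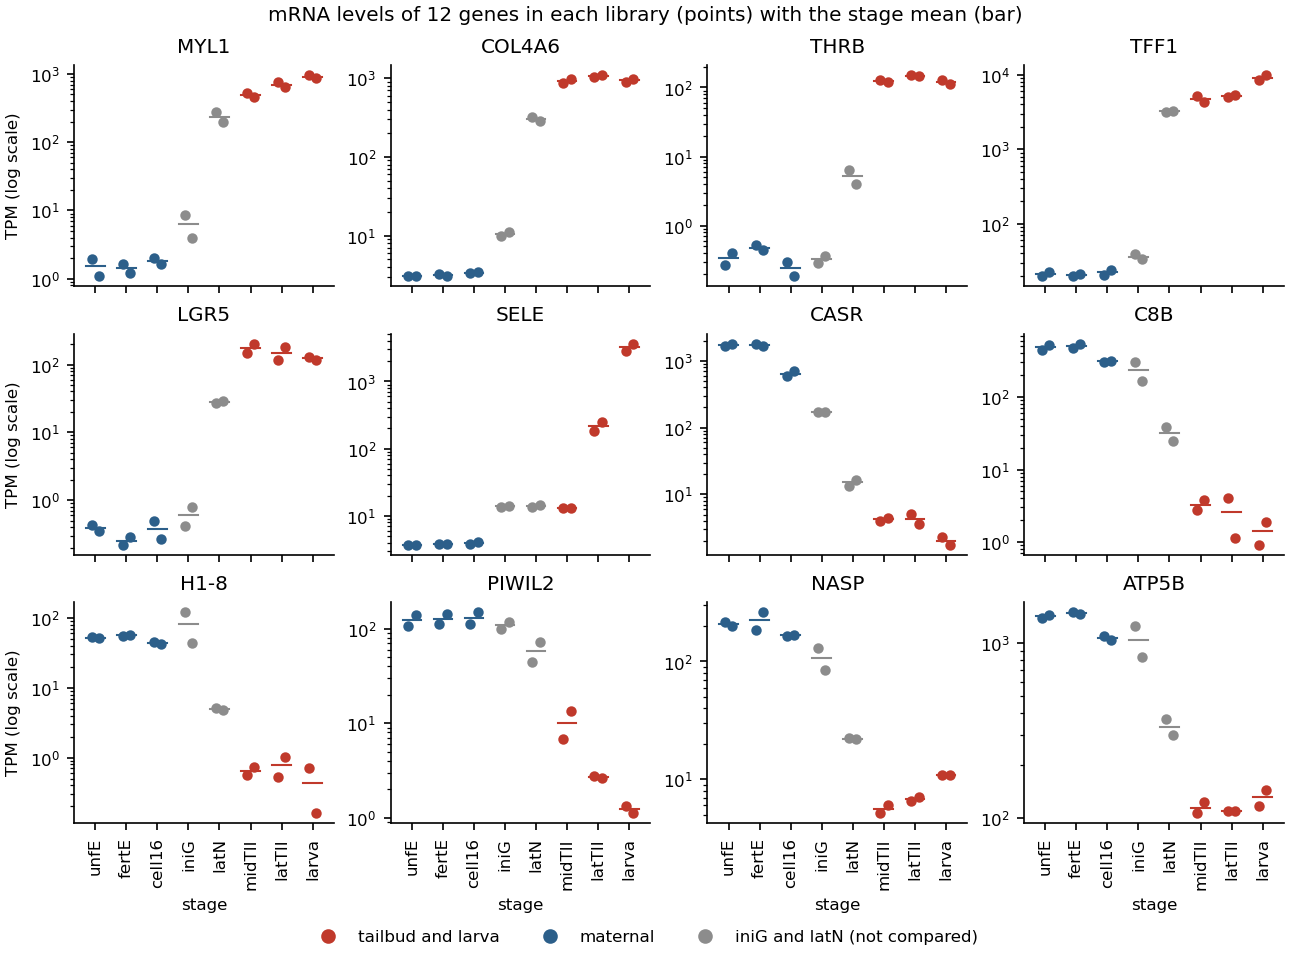
TPM of 12 genes on a log axis in each of the 16 libraries by stage, 2 points a stage, with a bar at the stage mean; tailbud and larva red, maternal blue, and the stages outside the comparison grey. The 6 tailbud and larva libraries of MYL1 lie between 461 and 955 TPM and the 6 maternal ones between 1.08 and 1.99 TPM, while CASR lies between 1.75 and 5.07 TPM and between 585 and 1792 TPM; SELE spans 12.9 to 3632 TPM within the later group alone.

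The neuron, synapse and ion channel list had 30 of 47 members higher, 14 lower and 3 not called. The share higher was 63.8%, beside 27.1% of all genes with a symbol. Its median log2 fold change was 0.59, beside 0.31 over all tested genes and -0.60 over the genes with a symbol. With library totals the median was -0.14, beside -1.33 over the genes with a symbol, and 19 members were called higher and 18 lower. Part of the list gained steeply. NOVA2 (KY21.Chr11.823), matched to a neuronal splicing regulator, had 48.7, 94.5 and 130 TPM in tailbud and larva, against 0.581, 0.652 and 0.753 TPM in the maternal libraries. ADGRB3, an adhesion receptor of synapses, had 153, 201 and 281 TPM, against 1.04, 1.41 and 1.74 TPM in maternal libraries. NCS1, a neuronal calcium sensor, had 11.9, 27.3 and 93.4 TPM, against 0.0774, 0.292 and 0.803 TPM. PRSS12, a protease matched to neurotrypsin, had 21.9, 27.4 and 60.5 TPM, against 0, 0.0852 and 0.144 TPM. DDC, which makes dopamine and serotonin, had 4.17 to 8.41 TPM in tailbud and larva and at most 1.1 counts in any maternal library. Other members were present from the egg on, among them STX1A and SNAP25, parts of the vesicle fusion machinery, with medians of 125 and 114 TPM in tailbud and larva, against 102 and 69.2 TPM in the maternal libraries; STX1A was not called with library totals. CNTNAP1, CACHD1 and KCNAB2, matched to a contactin partner and to channel-associated proteins, were lower, with log2 fold changes of -2.80, -2.83 and -2.20. All 3 members of the pigment and photoreceptor list were higher, with a median log2 fold change of 8.41. RGR, matched to a retinal opsin, had 380, 451 and 573 TPM in tailbud and larva, against 1.80, 2.12 and 2.71 TPM, and RLBP1, a carrier of retinal, had 129, 162 and 211 TPM, against 0.250, 0.628 and 0.982 TPM in maternal libraries. TYR, the enzyme that starts melanin synthesis, had medians of 11.2 TPM in tailbud and larva and 3.20 TPM in maternal libraries, and its libraries overlapped.

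Genes of cell division were mostly lower in tailbud and larva. In the mitosis and spindle list 58 of 68 members were lower (85.3%, beside 57.9% of all genes with a symbol). Of the rest 6 were higher and 4 not called, and the median log2 fold change of the list was -1.36. The summed level was 1798 to 3258 TPM in tailbud and larva, against 7654 to 8725 TPM in the maternal libraries. HAUS8 (KY21.Chr5.884), a subunit of augmin, which branches spindle microtubules, had 3.75, 6.03 and 14.8 TPM in tailbud and larva, against 122, 142 and 167 TPM in the maternal libraries (log2 fold change -3.68 ± 0.130, SE). PKMYT1, a kinase that restrains CDK1, had 12.7, 14.7 and 18.8 TPM, against 181, 214 and 247 TPM in maternal libraries. ANAPC7, a subunit of the anaphase-promoting complex, had 7.47, 9.64 and 14.5 TPM, against 96.1, 116 and 144 TPM. These members fell several-fold without being lost. CDK1 itself, the mitotic kinase, had a median of 139 TPM in tailbud and larva, against 367 TPM in the maternal libraries. A pair of genes was matched to INCENP, the scaffold of the chromosomal passenger complex, and they went opposite ways. One was lower, with a log2 fold change of -1.28, and KY21.Chr11.1202 had 23.4, 27.9 and 113 TPM in tailbud and larva, against 0, 0.114 and 0.256 TPM in the maternal libraries, where no library held more than 6.4 counts.

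The DNA replication list was lower in 44 of 47 members (93.6%), higher in 1 and not called in 2, with a median log2 fold change of -1.67. In 43 of its members the groups did not overlap. Of all genes with a symbol 57.9% were lower, and 46.0% lay without overlap on that side. GMNN (KY21.Chr1.1139), matched to geminin, which blocks relicensing of origins, had 15.2, 27.8 and 76.9 TPM in tailbud and larva, against 430, 495 and 671 TPM in the maternal libraries. POLD3, a subunit of DNA polymerase delta, had 3.39, 4.47 and 5.37 TPM, against 43.1, 48.6 and 52.4 TPM in maternal libraries. TIMELESS, a protector of the fork, had 6.97, 9.61 and 14.7 TPM, against 91.1, 98.3 and 120 TPM. Geminin was highest at midTII within the later group, at 65.6 ± 16.1 TPM, and lowest in the larva, at 18.5 ± 4.68 TPM (SD, n = 2 each). The DNA repair list was lower in 50 of 64 members (78.1%), higher in 4 and not called in 10, with a median log2 fold change of -1.62. HUS1, part of the checkpoint clamp, had 3.44, 5.38 and 6.17 TPM in tailbud and larva, against 69.8, 99.6 and 107 TPM in the maternal libraries. POLK, a translesion polymerase, had 1.79, 2.58 and 6.25 TPM, against 35.2, 53.8 and 63.4 TPM in maternal libraries. NHEJ1, an end-joining factor, had 5.56, 7.91 and 8.96 TPM, against 66.5, 105 and 116 TPM. No member of the 3 that are named overlapped between the groups.

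Germline and meiosis genes had the lowest median of the 19 lists, at -2.03, with 14 of 15 members lower and 1 higher. This was 93.3% lower, beside 57.9% of all genes with a symbol (median -0.60). H1-8 (KY21.Chr10.208), matched to the linker histone of oocytes, had 0.158, 0.642 and 1.02 TPM in tailbud and larva, against 42.0, 52.3 and 57.9 TPM in the maternal libraries. PIWIL2 (KY21.Chr11.1067) and PIWIL1 (KY21.Chr11.321), matched to the argonautes that carry piRNAs and silence transposons, were lower with log2 fold changes of -4.60 ± 0.173 and -2.81 ± 0.110 (SE). PIWIL2 had 1.11, 2.72 and 13.6 TPM in tailbud and larva, against 106, 125 and 149 TPM in maternal libraries. TDRD9 and TDRD1 (KY21.Chr1.1002), Tudor proteins of the same pathway, had medians of 5.24 and 1.61 TPM in tailbud and larva, against 111 and 30.5 TPM. The germ cell helicase match DDX4 had 82.2 TPM in tailbud and larva, against 214 TPM in maternal libraries, and overlapped, and TDRD5, the 1 member that was higher, had 72.8 TPM in tailbud and larva, against 32.8 TPM in the maternal libraries.

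Chromatin and nuclear transport genes were mostly lower as well. In the chromatin list 41 of 58 members (70.7%) were lower, 11 higher and 6 not called, with a median log2 fold change of -0.91. The nuclear pore and transport list had 31 of 37 members lower (83.8%), 2 higher and 4 not called (median -1.12). Over all genes with a symbol 57.9% were lower (median -0.60). NASP (KY21.Chr5.98), a histone chaperone, had 5.14, 6.83 and 10.9 TPM in tailbud and larva, against 164, 194 and 261 TPM in the maternal libraries. TADA2B and TADA2A, adaptors of histone acetyltransferase complexes, had medians of 8.82 and 8.57 TPM, against 101 and 82.6 TPM in maternal libraries. NUP35, a nucleoporin, had 9.89, 13.1 and 16.8 TPM in tailbud and larva, against 140, 193 and 233 TPM. IPO9, an importin, had 11.6, 16.6 and 19.3 TPM, against 138, 157 and 183 TPM in maternal libraries. NASP fell the most of these, with a log2 fold change of -4.05 ± 0.107 (SE). Among the gains in the chromatin list was a gene matched to BRD8, a bromodomain protein (KY21.Chr1.2017), with 184, 299 and 387 TPM in tailbud and larva, against 0.196, 0.569 and 0.941 TPM, beside RUVBL2, a helicase of chromatin remodelling complexes, with medians of 59.5 TPM and 19.5 TPM in maternal libraries.

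Oxidative phosphorylation genes were lower in 31 of 37 members, higher in 2 and not called in 4, with a median log2 fold change of -1.59. This was 83.8% lower, beside 57.9% of all genes with a symbol (median -0.60). The summed level of the list was 2471 to 3496 TPM in tailbud and larva, against 9497 to 12510 TPM in the maternal libraries. ATP5B (KY21.Chr3.1499), the catalytic subunit of ATP synthase, had 106, 113 and 145 TPM in tailbud and larva, against 1048, 1425 and 1502 TPM in maternal libraries. COX5B (KY21.Chr1.226), of cytochrome c oxidase, had 9.69, 15.0 and 16.8 TPM, against 173, 221 and 280 TPM. UQCRFS1, the iron-sulfur subunit of complex III, had 14.5, 19.0 and 28.0 TPM, against 210, 256 and 292 TPM. Genes of complexes I to V were among those that fell, and SLC25A3, the mitochondrial phosphate carrier, was the fourth most abundant gene of the lower set, with 120, 178 and 210 TPM in tailbud and larva, against 1518, 1711 and 2007 TPM in the maternal libraries. The 2 members called higher were CYCS and NDUFS4, whose median TPM differed little between the groups, at 668 and 80.5 TPM in tailbud and larva, against 652 and 70.7 TPM in maternal libraries. With library totals CYCS was not called.

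Genes that act on mRNA tails, decay and translation split much as all genes with a symbol did. Of 38 members 21 were lower (55.3%), 12 higher (31.6%) and 5 not called (median log2 fold change -0.52). Of all genes with a symbol 57.9% were lower and 27.1% higher (median -0.60). LSM1, of the decapping complex, had 12.5, 19.5 and 22.8 TPM in tailbud and larva, against 158, 173 and 200 TPM in the maternal libraries. PAIP1, which binds poly(A)-binding protein, had 12.3, 19.5 and 25.9 TPM, against 172, 184 and 192 TPM in maternal libraries. ZFP36L2 (KY21.Chr4.18), matched to a protein that binds AU-rich elements and triggers decay, had 62.9, 84.8 and 174 TPM, against 0.321, 0.622 and 1.03 TPM. YBX1, a cold-shock protein that packages mRNA, had 137, 414 and 602 TPM, against 46.2, 60.9 and 67.0 TPM, and LIN28B, which blocks let-7 processing, had 141, 185 and 225 TPM, against 47.0, 59.1 and 90.2 TPM in maternal libraries. No library of one group reached the other in these members. Within the later group YBX1 was lowest in the larva, at 138 ± 1.28 TPM, and highest at midTII, at 560 ± 42.5 TPM (SD, n = 2 each).

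**Figure D3:**
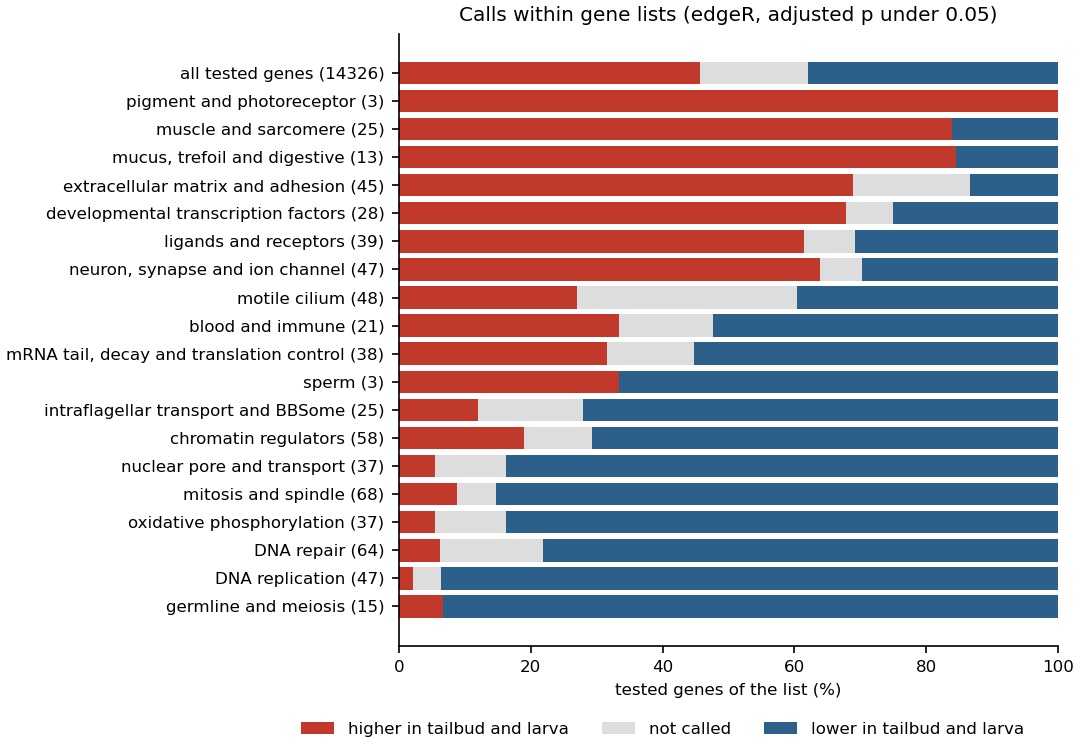
Share of the tested genes of each of 19 lists that edgeR called higher in tailbud and larva (red), did not call (grey) or called lower (blue), with the number tested in brackets, ordered by median log2 fold change below a bar for all 14326 tested genes (45.7% higher and 37.9% lower). The lists hold only genes with a symbol, of which 27.1% were higher and 57.9% lower, shares that the bar does not show. Muscle (21 of 25 higher) lies near the top and DNA replication (44 of 47 lower) near the bottom. The lists of 3 genes are too short to read as shares.

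The balance of the motile cilium genes depended on the scaling, as did that of all genes with a symbol. The motile cilium list had 13 of 48 members higher, 19 lower and 16 not called, with a median log2 fold change of -0.25. These were 27.1% higher and 39.6% lower, beside 27.1% and 57.9% of all genes with a symbol. With RLE factors 15 were higher and 18 lower (median 0.02), and with library totals 6 were higher and 33 lower (median -0.98). With limma on TPM 7 were higher and 32 lower (median -0.81). Over all genes with a symbol the median was -0.60 with TMM factors. It was -0.33, -1.33 and -1.24 with RLE factors, library totals and limma on TPM. CFAP52, of the axoneme, had 10.7, 19.4 and 24.7 TPM in tailbud and larva, against 0.819, 2.06 and 2.92 TPM in the maternal libraries. CFAP70, another axonemal protein, had 2.64, 3.81 and 4.88 TPM, against 30.0, 36.0 and 40.0 TPM in maternal libraries. Intraflagellar transport and BBSome genes, which carry cargo along cilia, were lower in 18 of 25 members, higher in 3 and not called in 4 (median -0.76), beside 57.9% lower and a median of -0.60 over all genes with a symbol. The exceptions included BBS7 (KY21.Chr10.1178), with 24.6, 52.5 and 77.9 TPM in tailbud and larva, against 7.23, 8.33 and 9.82 TPM. Because fertilized samples can carry sperm, a list of 4 sperm genes was also read. ODF3, of the sperm tail, was at 0 in the median of both groups and was not tested, 1 of the other 3 members was higher and 2 were lower (median log2 fold change -0.71), and the summed level was 38.6 to 162 TPM in tailbud and larva, against 59.9 to 90.0 TPM in the maternal libraries. The gain was WBP2NL, matched to a sperm protein linked to egg activation, with 31.9, 98.5 and 153 TPM in tailbud and larva, against 0.428, 0.745 and 1.22 TPM in maternal libraries. FSIP1, matched to a protein of the sperm tail sheath, had 4.18, 5.19 and 9.99 TPM, against 49.8, 71.0 and 82.8 TPM. The comparison pools unfertilized eggs with fertilized samples, so it cannot show sperm carried over. FSIP1 stood at 72.6 ± 13.5 TPM at unfE and 67.5 ± 21.6 TPM at fertE (SD, n = 2 each). WBP2NL stood at 0.772 ± 0.418 and 0.745 ± 0.223 TPM there, and at 346 ± 9.89 TPM at latN.

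Blood and immune genes also went both ways, with 7 of 21 higher (33.3%), 11 lower (52.4%) and 3 not called (median log2 fold change -0.45). These shares lay near those of all genes with a symbol, 27.1% higher and 57.9% lower (median -0.60). C8B (KY21.Chr1.914), matched to a component of the membrane attack complex, had 0.913, 2.33 and 4.07 TPM in tailbud and larva, against 305, 460 and 542 TPM in the maternal libraries, a log2 fold change of -6.86 ± 0.268 (SE; edgeR's adjusted p = 1.7e-09). SIGIRR, an inhibitory receptor of the interleukin-1 family, had 0.0971, 0.937 and 1.56 TPM, against 10.6, 28.6 and 65.7 TPM in maternal libraries. C6, matched to another complement component, went up, with 17.2, 20.5 and 58.6 TPM in tailbud and larva, against 0.210, 0.635 and 1.25 TPM. SELE (KY21.Chr1.494), matched to a selectin, had the widest spread within a group of the genes named here. It had 12.9, 215 and 3632 TPM in tailbud and larva, against 3.69, 3.79 and 4.15 TPM in the maternal libraries, and its means were 13.1 ± 0.248, 215 ± 44.6 and 3241 ± 552 TPM (SD, n = 2 each) at midTII, latTII and larva. Its log2 fold change of 6.45 ± 0.125 (SE) averages these 3 stages.

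Spread within a group was wider in tailbud and larva than in the maternal libraries. Over the 3765 higher genes with at least 1 CPM in all tailbud and larva libraries, the highest library was a median of 2.63 times the lowest, and 4.41 times at the upper quartile, while those with at least 1 CPM in all maternal libraries had a median of 1.54 times there. For the lower genes, by the same limit, the median was 1.78 times in tailbud and larva and 1.41 times in the maternal libraries, with upper quartiles of 2.22 and 1.66 times. The stage of the highest mean TPM varied in both sets. Of the 4819 higher genes 1627 (33.8%) peaked in the larva, 1182 at latTII, 951 at midTII, 805 at latN and 226 at iniG. The rest peaked in a maternal stage, 21 at fertE, 4 at cell16 and 3 at unfE. The sets were chosen on CPM with TMM factors, while these peaks were read on TPM. Of the 4116 lower genes 1680 (40.8%) peaked in the fertilized egg, 1274 (31.0%) at iniG, 713 at the 16-cell stage, 417 in the unfertilized egg and 32 at latN.

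For 285 genes every tailbud and larva library had a TPM of at least 2 while no maternal library held more than 3 counts, and 33 of these had no count in any maternal library. KY21.Chr10.496 had 11.8, 98.7 and 500.1 TPM in tailbud and larva and no count in the maternal libraries, and its median later library was at least 82.8-fold higher, and its lowest at least 9.79-fold, taking 3 counts per library after scaling as the level that a count of 0 allows. KY21.Chr2.721 had 7.16, 16.4 and 25.1 TPM, likewise against 0, with bounds of at least 126-fold for the median and at least 54.2-fold for the lowest library. Of the 8 with a symbol, SLC26A5 (KY21.Chr9.1139), matched to the motor protein of cochlear hair cells, had 5.69, 15.3 and 22.2 TPM, against 0, 0.0102 and 0.0512 TPM in maternal libraries. FABP7, a fatty acid carrier of glia in vertebrates, had 23.8, 42.9 and 87.5 TPM in tailbud and larva and at most 2 counts in a maternal library. Fitted fold changes of such genes depend on the prior count and are not given singly, although they enter the medians above. The reverse pattern was rare. KY21.Chr5.451, with 2.5 counts at most in a tailbud or larva library and 24.1, 40.9 and 65.9 TPM in maternal libraries, was 1 of 4 genes of that kind.

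Genes with the deepest falls that belong to none of the lists above included MMEL1, matched to a membrane metallopeptidase, with 0.759, 1.99 and 3.71 TPM in tailbud and larva, against 115, 148 and 166 TPM in the maternal libraries. GYG1, glycogenin, the primer of glycogen synthesis, had 5.39, 5.85 and 6.37 TPM, against 227, 250 and 342 TPM in maternal libraries. FBXL12, an F-box protein of ubiquitin ligases, had 12.9, 14.4 and 16.6 TPM, against 437, 751 and 967 TPM. FBXL12 was already lower in 16-cell embryos, at 502 ± 92.0 TPM, than in fertilized eggs, at 864 ± 80.7 TPM (SD, n = 2 each), as CASR and C8B were. The most abundant losses without a symbol were KY21.Chr4.92, with 244, 413 and 964 TPM in tailbud and larva, against 5372, 6014 and 6679 TPM, and KY21.Chr2.319, with 114, 241 and 566 TPM, against 2733, 3136 and 3499 TPM in maternal libraries. Both were still high at latN, at 4747 ± 169 and 2489 ± 80.4 TPM. KY21.Chr6.317, the third of these, had 12.7, 27.8 and 80.0 TPM in tailbud and larva, against 2238, 2606 and 2978 TPM in maternal libraries, and stood at 265 ± 13.0 TPM at latN.

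Further falls concerned transport, iron storage and secretion. SLCO1B7, matched to an organic anion transporter, had 0.425, 0.783 and 1.29 TPM in tailbud and larva, against 50.7, 59.2 and 70.9 TPM in the maternal libraries. FTH1 (KY21.Chr1.1580), matched to the ferritin heavy chain, had 0, 0.349 and 0.526 TPM, against 12.3, 18.5 and 37.3 TPM in maternal libraries. FAM20A, matched to a pseudokinase of the secretory pathway, had 0.302, 0.917 and 2.01 TPM, against 27.3, 65.9 and 93.6 TPM. None of these 3 exceeded 2.01 TPM in a tailbud or larva library. Gains outside the lists included CETN3, matched to a centrin of the centriole, with 126, 157 and 257 TPM in tailbud and larva, against 0.220, 0.409 and 0.939 TPM in the maternal libraries. MLKL, matched to the executor of necroptosis in mammals, had 78.6, 86.2 and 226 TPM, against 0.157, 0.274 and 0.455 TPM in maternal libraries. ZNF562, matched to a zinc finger protein, had 18.4, 89.5 and 129 TPM, against 0, 0.0984 and 0.253 TPM. The groups were apart in all 6 genes.

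Summed over genes, the sets held most of the mRNA of their own stages, which is a description of how they were chosen and not a test. The higher set took 65.0 to 70.6% of KY21 TPM in tailbud and larva libraries and 15.6 to 18.0% in maternal libraries. The lower set took 9.59 to 12.1% in tailbud and larva and 48.7 to 51.2% in maternal libraries. In the 4 libraries that the choice of genes did not use, the higher set took 21.3 to 44.3% and the lower set 24.6 to 44.9%. Within each stage the replicates lay close together compared with the steps between iniG, latN and midTII.

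**Figure D4:**
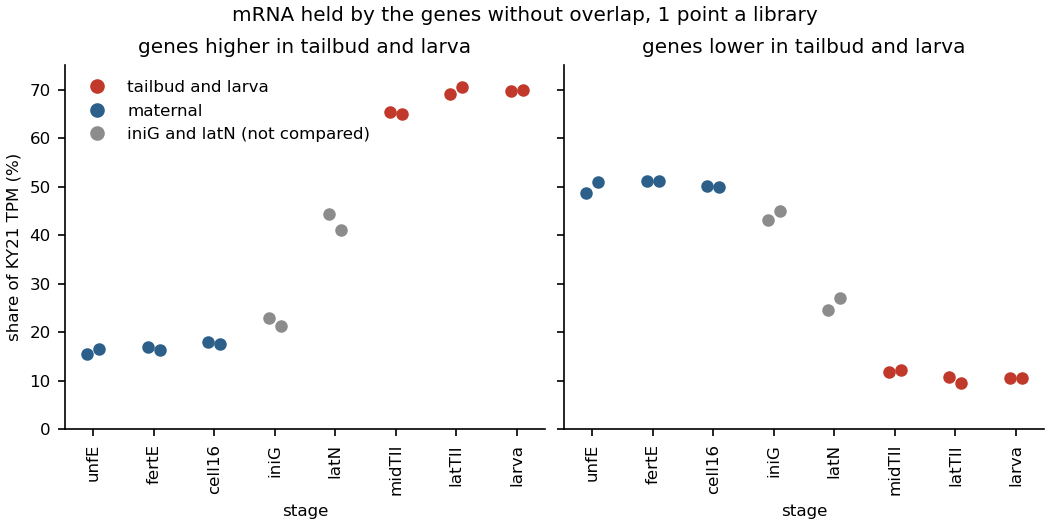
Share of KY21 TPM (percent) held by the 4819 genes higher in tailbud and larva, left, and the 4116 genes lower there, right, by stage, with 1 point a library. The higher set holds 65.0 to 70.6% in tailbud and larva libraries and 15.6 to 18.0% in maternal ones, with iniG and latN in between.

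The stages between the groups show when genes left their maternal level. Of the 4819 higher genes 1952 lay above all 6 maternal libraries in both iniG libraries, 1859 of them also in both latN libraries. A further 1800 did so first at latN, and 1067 only from midTII on. Of the 4116 lower genes 1627 lay below all maternal libraries in both iniG libraries, 1577 of them also at latN. A further 1469 did so first at latN, and 1020 only from midTII on. In the typical higher gene the mean of iniG had covered 13.4% of the distance between the group medians (quartiles 0.766 and 39.9%) and that of latN 55.3% (24.0 and 87.2%). The lower genes stood at 16.0% (quartiles -6.89 and 42.8%) at iniG and 54.4% (26.1 and 83.0%) at latN. How the sets compare here depended on the scaling. On the TPM scale the higher genes stood at 21.2% at iniG and 68.6% at latN and the lower genes at 6.55 and 44.3%, and with library totals the values were 17.9 and 63.2% for higher and 11.8 and 50.2% for lower genes. Some genes went further. In 452 lower genes both iniG libraries lay above every maternal library, a count that was also 452 with library totals, 603 with RLE factors and 672 on the TPM scale. In 209 higher genes both latN libraries lay above every tailbud and larva library. This became 152 with RLE factors, 426 with library totals and 491 on the TPM scale. None of the counts in this paragraph was made over all tested genes, so they do not show what is particular to the sets.

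Single genes illustrate the order. TFF1 stood at 36.1 ± 3.90 TPM at iniG and 3229 ± 34.9 TPM at latN, MYL1 at 6.22 ± 3.27 and 237 ± 55.9 TPM, and THRB at 0.324 ± 0.0587 and 5.16 ± 1.60 TPM (SD, n = 2 each). TFF1, MYL1 and THRB were thus all above their maternal ranges at latN, where the highest maternal library of THRB had 0.520 TPM. THRB was still far from its midTII mean of 125 TPM. HOXD10 was still low at latN, at 0.242 ± 0.239 TPM, and TFF3, at 3.66 ± 0.0484 TPM, lay just above its maternal range of 1.47 to 3.27 TPM. On the falling side PIWIL1 was at 62.2 ± 9.11 TPM at iniG, while PIWIL2 was at 108 ± 14.3 TPM, a mean inside its maternal range of 106 to 149 TPM. H1-8 ranged widely between the iniG libraries, at 82.1 ± 54.5 TPM, and stood at 5.01 ± 0.252 TPM at latN.

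**Figure D5:**
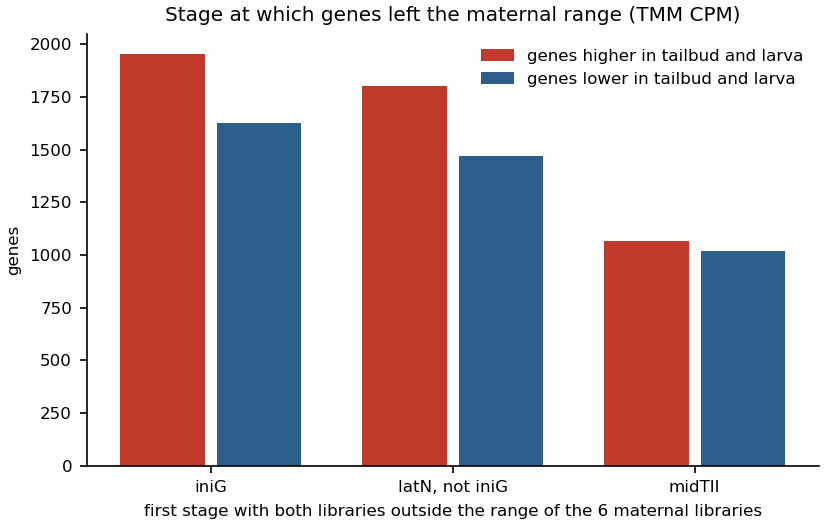
Number of genes by the first stage at which both libraries lay outside the range of the 6 maternal libraries, on the side of tailbud and larva, for the 4819 higher (red) and 4116 lower (blue) genes. By iniG 1952 higher and 1627 lower genes had left the range, another 1800 and 1469 by latN, and 1067 and 1020 only from midTII.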

How the data were processed

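Per the labels and methods, the authors used FastQC for read quality, Trim Galore for trimming and Salmon for quantification on KY21 transcripts, summed per gene. The authors deposited estimated counts, TPM, and signal values normalized by DESeq2 size factors. Libraries compared held 23.1 to 33.4 M estimated counts. The 36 ENSCING rows (18.3 to 27.4% of TPM) were left out of tests and CPM; the deposited TPM were used as given.

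Counts were rounded and tested with edgeR 4.0.16 in R 4.3.3 (filterByExpr, TMM, robust quasi-likelihood F-test, 1 term per stage, mean of midTII, latTII and larva minus mean of unfE, fertE and cell16, Benjamini-Hochberg over 14326 genes). SE was derived from F, as the size of the log2 fold change divided by its square root. On simulated data the test recovered 61% of 2-fold and 89% of 4-fold changes among 14326 genes, and 9 of 14126 unchanged genes were called. Only 100 genes were changed by each fold there, against 83.6% of genes called here. These rates therefore do not describe the real comparison. Alternatives used RLE factors, library totals, DESeq2 1.42.0, limma 3.58.1 on log2(TPM+1) and log2(TPM+0.1), other filters, a replicate block, all 16 libraries, 6 against 6, and libraries or stages left out. The sums over stages, made by replicate number, were added after the data were seen.

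Members and the 19 lists were chosen with earlier results of these data known. Named genes had an adjusted p under 0.05 and no overlap: the 12 largest rises and falls with a symbol and a median TPM of at least 10, the 5 most abundant each way, and up to 5 per list; other members were chosen after their values were seen. Symbols (3832 matched, 2548 human) came from tables held in part (1999, 1518 and 1999 entries). Gene positions are not given.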

Additional observations from a re-analysis of the deposited data

Results flagged for a closer look

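Some genes peaked between the compared groups, in libraries that the comparison did not use. In 33 genes both iniG libraries had a TPM of at least 10 and over 4 times the highest of the 12 compared libraries, and 12 of these were not called in the comparison. KY21.Chr9.86 had 275 and 209 TPM in the iniG libraries, against at most 3.33 TPM in tailbud and larva and 19.4 TPM in the maternal libraries. In 21 genes the same held at latN, and 3 of these were not called. POFUT2, matched to an enzyme that adds fucose to thrombospondin repeats, had 1692 and 1358 TPM in the latN libraries, against at most 113 TPM in tailbud and larva and 161 TPM in the maternal libraries. TTPAL, matched to a lipid transfer protein, met both conditions, with 95.2 and 79.9 TPM at iniG and 49.8 and 85.4 TPM at latN.

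One library stood apart in 1 list. The summed TPM of the DNA repair list was 3808 in fertE replicate 2, above the other 5 maternal libraries by 0.632 of the group's range. This was 1 of 48 sums and library measures checked, and chance sets about 1 in 20 groups apart in this way.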

How the results depend on the processing

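None of the 109 named genes changed direction or call under any alternative run. Calls in each direction stayed within 1.5 times the values above under each one. Leaving out a library gave 6383 to 6670 higher and 5274 to 5418 lower calls, and leaving out a stage 6180 to 6386 and 5171 to 5354. Splits by scaling were 60.4% higher with DESeq2 (median log2 change 0.59) and 41.7% with limma on log2(TPM+1) (median -0.51). Deposited counts with no scaling left 3758 genes without overlap on the higher side and 5479 on the lower side. Genes near absence depended on the limit. Those at 3 counts or fewer in maternal libraries numbered 769 with a limit of 10 counts and 46 with a TPM of at least 10, and those in tailbud and larva 31 and 2. Lower genes that left the maternal range only from midTII numbered 631 with library totals. The smaller side of a list moved most, 69 of 1178 list counts by over 1.5 times. Replicate numbers were not taken as pairs, since the correlation of deviations did not exceed 0.1 in every pair of stages. It was 0.57 to 0.62 between maternal stages. Between midTII and latTII, midTII and larva, and latTII and larva it was 0.02, -0.16 and 0.18. Maternal libraries of a replicate number thus deviated together, which the test did not take into account. A replicate block called 6604 genes higher and 5438 lower. Calls included changes under 2-fold, as 5674 of the 6544 higher and 3702 of the 5426 lower genes had an absolute log2 change of at least 1. The simulation, in which few genes changed, sets no limit for such calls. Counts of fewer than 3 set no level.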
